A study of Mus musculus with 73 samples.

Results

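A pair of deletions within Xite, XiteC-del and XiteE-del, were compared directly by 5C (chromosome conformation capture carbon copy) in male mouse embryonic stem (ES) cells. The comparison covered 4 libraries of the 73 samples in the series, 2 of XiteC-del and 2 of XiteE-del, chosen by their titles. Beside them stand 2 libraries of WT (unedited cells), and the inversions XiteC-inv and XiteE-inv, 2 libraries each, from the same set of 10. All cells were E14Tg2a (129/Ola, XY), grown without feeder cells in serum and leukemia inhibitory factor. Edited cells had been transfected with CRISPR plasmids or TALENs. The labels do not say which tool made which edit, nor what the letters C and E mean. The 4 compared libraries carry 4 different sample codes, and the labels do not say whether these are clones. With 2 libraries a genotype, p-values measure only the spread between these libraries, which may be technical. No RNA was analysed from these libraries, so markers of the cell type could not be read.

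The X-inactivation centre is the part of the X chromosome from which X inactivation is controlled. It holds Xist, whose RNA coats and silences the chromosome, and Tsix, the antisense transcript that holds Xist down. Xite is an enhancer of Tsix that lies just upstream of it, close to the border between the chromatin domain of Tsix and that of Xist. Chromatin domains are stretches of a chromosome whose fragments meet each other more often than they meet fragments beyond the border, and borders of this kind often carry binding sites of the architectural protein CTCF. In the gene order of the assembly GRCm38.p6, Cdx4, Chic1 and Tsx come first, then Tsix and Xist, then Jpx, Ftx and Rlim. The 5C coordinates are of the older build mm9, so no gene was placed on them here.

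5C counts ligation products between a forward primer on one restriction fragment and a reverse primer on another. The primers covered X:98831149-103425147, 4.59 Mb, with 511 forward and 528 reverse fragments, and 26 of each on chromosome 5. The XiteC-del libraries held 21191816 and 17816295 counts, and the XiteE-del libraries 18742548 and 23928188. Pairs within the X region took 97.3% to 97.7% of these counts. Pairs between the X and chromosome 5, which measure ligation between chromosomes, took 1.23% and 1.497% in XiteC-del and 1.71% and 1.56% in XiteE-del, without overlap. All 4 libraries carry the code B100 in the labels, as does WT 1. WT 2 and XiteE-inv 2 carry B101 and had 0.28% of counts between chromosomes. Both also had a smaller share of counts in pairs over long distances than the B100 libraries. Levels are given in CPM, counts scaled to a common total over all counts of a library, unless stated otherwise.

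Each deletion was first checked by the fragments it had lost, meaning fragments below 10% of the level in the other deletion. XiteC-del had lost the fragment of forward primer 577, X:100636563-100639613. Its total was 74.3 and 81.1 CPM in XiteC-del, against 2001 and 2090 CPM in XiteE-del and 2175 and 2498 CPM in WT. XiteE-del had lost the neighbouring fragments of reverse primer 574, X:100623271-100629519, and forward primer 575, X:100629520-100633845. Primer 575 had 2842 and 2690 CPM in XiteC-del, 59.97 and 34.8 CPM in XiteE-del and 2561 and 3051 CPM in WT. Primer 574 had 656.9 and 664.0 CPM in XiteC-del, 31.5 and 24.0 CPM in XiteE-del and 583 and 818 CPM in WT. Each genotype lacked fragments that the other kept, all within X:100623271-100639613, a span of 16.3 kb.

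Another 2 fragments fell between present and lost. Forward primer 573, X:100618973-100623270, had 385 and 446 CPM in XiteC-del, 59.3 and 64.9 CPM in XiteE-del and 424 and 478 CPM in WT. As CPM of X-X counts alone, its XiteE-del level was 15.0% of the XiteC-del level. Reverse primer 576, X:100633846-100636562, lies between the fragments that the 2 deletions lost. It had 1637 and 1789 CPM in XiteC-del, 3531 and 3559 CPM in XiteE-del and 3757 and 2789 CPM in WT. Most of what XiteC-del kept on primer 576 came from 2 primer pairs. The pair with forward primer 748, 522 kb away, had 970 and 984 CPM in XiteC-del, 935 and 933 CPM in XiteE-del and 946 and 111 CPM in WT. The pair with forward primer 714, 446 kb away, had 450 and 543 CPM in XiteC-del, 555 and 545 CPM in XiteE-del and 591 and 31.3 CPM in WT. These 2 pairs were alike in both deletions and low in the B101 library of WT. With all other partners, primer 576 had 222 and 270 CPM of X-X counts in XiteC-del, 2097 and 2137 in XiteE-del, and 2282 and 2689 in WT. With forward primer 579, a near neighbour, it had 0.236 and 1.52 CPM in XiteC-del, 174 and 192 CPM in XiteE-del and 200 and 233 CPM in WT. Its signal with near fragments was therefore nearly absent in XiteC-del, although the fragment as a whole did not meet the rule for loss.

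In XiteC-del, the fragments on both sides of the gap met each other more often than in WT. The pair of forward primer 575 and reverse primer 580 had 456 and 443 CPM in XiteC-del, 0.267 and 0.167 CPM in XiteE-del and 114 and 144 CPM in WT. Primer 575 is among the fragments lost in XiteE-del. The pair of primers 575 and 578 had 381 and 329 CPM in XiteC-del, 0.213 and 0.209 CPM in XiteE-del and 91.7 and 111 CPM in WT.

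**Figure D1:**
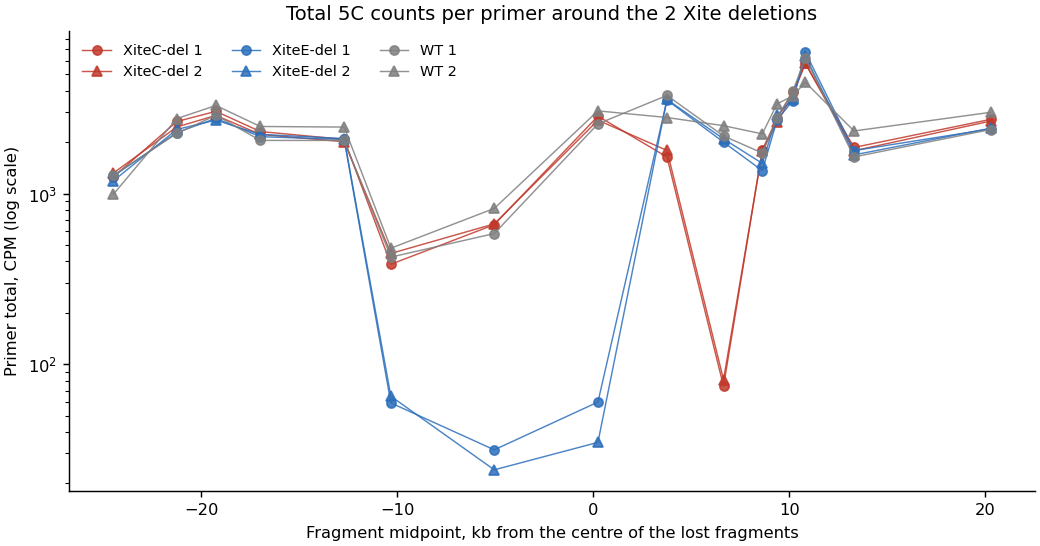
Total 5C counts of each primer within 26 kb of the centre of the lost fragments, in CPM on a log scale, for the 2 libraries each of XiteC-del, XiteE-del and WT. XiteE-del drops at 3 neighbouring primers, to between 24.0 and 64.9 CPM, and XiteC-del at 1 primer above them, to 74.3 and 81.1 CPM.

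Across all 1039 X primers, few totals differed between the 2 deletions outside this span. In edgeR's quasi-likelihood test 8 of 1039 primers were called at an adjusted p below 0.05, 0.77% of those tested, with 6 higher (0.577%) and 2 lower (0.192%) in XiteC-del. Of these, 5 are the edited fragments described above. The other 3, all reverse primers, were higher in XiteC-del. Log2 ratios are XiteC-del over XiteE-del, from the fit. Reverse primer 228, X:99586876-99596799, far below the edits, had 1362 and 1224 CPM in XiteC-del, 982 and 964 CPM in XiteE-del and 1153 and 1699 CPM in WT, and the log2 ratio was 0.41 ± 0.07 (SE), adjusted p = 0.0232. Reverse primer 562, X:100601155-100601271, just below the edits, had 1236 and 1247 CPM in XiteC-del, 993 and 980 CPM in XiteE-del and 1196 and 1022 CPM in WT, and the log2 ratio was 0.33 ± 0.06, adjusted p = 0.0273. Reverse primer 578, X:100639614-100640516, next to the fragment lost in XiteC-del, had 1804 and 1775 CPM in XiteC-del, 1362 and 1502 CPM in XiteE-del and 1728 and 2236 CPM in WT, and the log2 ratio was 0.32 ± 0.06, adjusted p = 0.0273. Counted only over pairs more than 30 kb apart, the log2 ratio of primer 578 was -0.08 and that of primer 562 was 0.04, neither called. None of these 3 calls held in the fit of all 10 libraries or without XiteC-del 1.

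Domains were taken from the 2 WT libraries, which are outside the comparison. For each position between 30 kb bins, the mean CPM per primer pair was taken over the 10 bins below against the 10 bins above, and low points of this curve were called borders. The border nearest to the edits was at X:100661148, 29.7 kb above the centre of the lost fragments. The domain below it, here the lower domain, spans X:100331149-100661148 (330 kb, 85 primers) and holds both deletions. The domain above it, the upper domain, spans X:100661149-101231148 (570 kb, 148 primers). The rest of the map is called far below and far above. The 3 lost fragments were left out of every library in what follows, except where the fragments kept by each deletion are set beside WT.

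The border next to the edits was crossed by more contacts in XiteC-del than in XiteE-del. Contacts across it were 2.31 and 2.27 (log2 CPM per primer pair) in XiteC-del, 1.78 and 1.77 in XiteE-del, and 1.80 and 2.11 in WT. Both XiteC-del libraries were above all XiteE-del and WT libraries, and both XiteE-del libraries were just below WT 1. The difference of 0.52 between the deletions, 1.43-fold, was the largest in absolute size over 134 positions of the map, where the median difference was 0.06 and the range ran from -0.31 to 0.52. The exact two-sided permutation test gave p = 0.33, the smallest value that 2 against 2 libraries allow. With 20 bins on each side in place of 10, the difference was 0.30. The same reading gave 2.17 and 2.25 in XiteC-inv and 1.81 and 1.99 in XiteE-inv. At the other 7 WT borders the difference between the deletions lay between -0.19 and 0.08. The value of -0.19 belongs to the lower end of the lower domain, X:100331148, where contacts across were 2.66 and 2.62 in XiteC-del, 2.83 and 2.84 in XiteE-del and 2.54 and 2.91 in WT. XiteC-del was thus higher at the border between the lower and upper domains and lower at the border between the lower domain and the region below it.

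**Figure D2:**
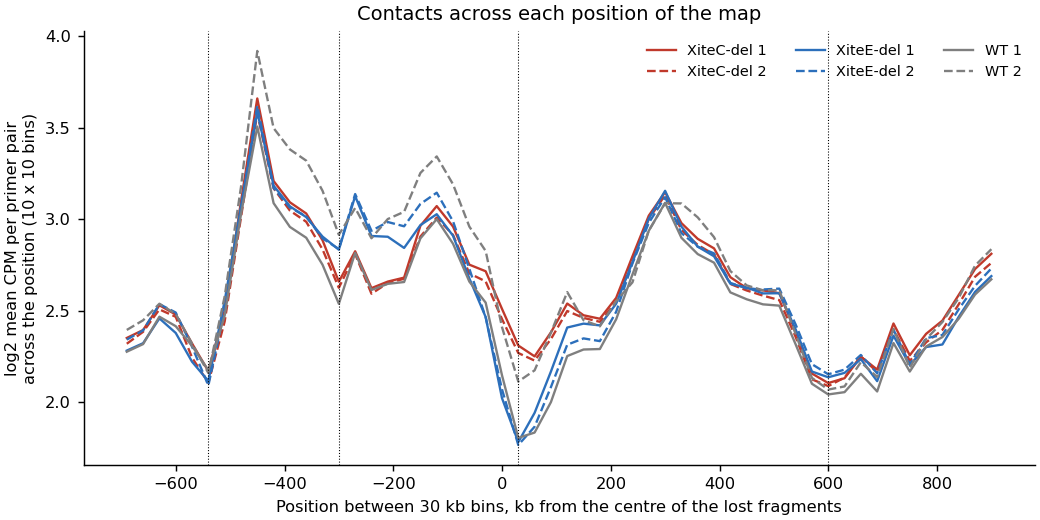
Mean contacts across each position between 30 kb bins (log2 CPM per primer pair, 10 bins on each side) in XiteC-del, XiteE-del and WT, with solid lines for replicate 1 and dashed lines for replicate 2. Dotted lines mark WT borders; at the border 29.7 kb above the edits XiteC-del reads 2.31 and 2.27 against 1.78 and 1.77 in XiteE-del.

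All counts were also divided by domain, with the same contrast. The border readings above use part of the same counts, so these shares are not a separate result. Pairs between the lower and upper domains took 2.58% and 2.54% of counts in XiteC-del, 2.00% and 1.91% in XiteE-del and 2.00% and 2.01% in WT. Their share was 1.31-fold higher in XiteC-del than in XiteE-del, while both XiteE-del libraries were close to both WT libraries. Pairs between the lower domain and the region far below took 1.48% and 1.54% in XiteC-del, 1.89% and 1.89% in XiteE-del and 1.65% and 1.47% in WT. Here XiteC-del was at 0.80 of the XiteE-del share, and both XiteE-del libraries were above both WT libraries. The groups did not overlap in either class, and the exact two-sided permutation test gave p = 0.33 for each.

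Contacts inside the domains differed little. Pairs within the lower domain took 4.93% and 4.65% in XiteC-del, 4.55% and 4.75% in XiteE-del and 4.86% and 5.997% in WT, and the deletions overlapped. Pairs within the upper domain took 9.60% and 9.12% in XiteC-del, 9.05% and 8.99% in XiteE-del and 8.85% and 11.1% in WT, a ratio of 1.04 without overlap. Pairs within chromosome 5, outside the edited region, took 1.02% and 1.01% in XiteC-del and 0.97% and 1.06% in XiteE-del, a ratio of 1.00.

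The remaining classes join regions that the edits do not touch directly or lie over long distances. Pairs within the region far below took 16.4% and 16.1% in XiteC-del and 15.6% and 15.6% in XiteE-del, and pairs within the region far above 44.2% and 43.1% in XiteC-del and 42.7% and 43.3% in XiteE-del. Pairs of the lower domain with far above took 3.34% and 3.57% in XiteC-del and 3.57% and 3.71% in XiteE-del. Pairs of the upper domain with far below took 2.45% and 2.67% in XiteC-del and 2.78% and 2.63% in XiteE-del. All of these ratios were between 0.89 and 1.04, as were those of upper with far above (7.61% and 8.28% in XiteC-del, 9.01% and 8.77% in XiteE-del) and of far below with far above (4.76% and 5.54% in XiteC-del, 5.94% and 5.62% in XiteE-del). Without XiteC-del 1 or XiteC-del 2, the log2 ratio of far below with far above was -0.06 or -0.28, against -0.16 with all 4 libraries, and that of upper with far above was -0.10 or -0.22, also against -0.16. The exact two-sided permutation test gave p of 0.33 or more for each of the 12 classes.

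Shares of counts over long distances also differed between the 2 deletions. Pairs 960 to 1920 kb apart took 11.5% and 12.5% of X-X counts in XiteC-del, 13.1% and 13.2% in XiteE-del and 13.2% and 6.96% in WT. Pairs more than 1920 kb apart took 6.49% and 7.79% in XiteC-del, 8.79% and 8.02% in XiteE-del and 8.92% and 2.80% in WT. XiteC-del was below XiteE-del and WT 1 in both bands, and XiteE-del was close to WT 1 in the first. In the second band, XiteE-del 2 lay nearer to XiteC-del 2 than to WT 1. The 2 XiteC-inv libraries, also B100, took 13.3% and 12.1% in the first band and 8.34% and 6.66% in the second. XiteC-inv 2 thus lay among the XiteC-del values, and XiteC-inv 1 was close to XiteE-del. Contacts across the border next to the edits were also compared at matched distance, with primers 576 and 573 left out as well.

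At 60 to 120 kb, pairs across the border had 8.99 and 8.78 CPM per primer pair in XiteC-del, 5.29 and 4.94 in XiteE-del and 4.72 and 6.33 in WT, a ratio of 1.74 between the deletions. Pairs at the same distance inside one of the 2 domains had 15.5 and 14.8 in XiteC-del, 14.1 and 14.7 in XiteE-del and 14.1 and 16.1 in WT, a ratio of 1.05. The ratio across the border was 1.37 at 30 to 60 kb, 1.53 at 120 to 240 kb, 1.35 at 240 to 480 kb and 1.29 at 480 to 960 kb. The ratio inside a domain was between 0.93 and 1.06 in these 5 bands. At each distance the groups did not overlap across the border, and XiteC-del was the higher. Inside a domain the groups did not overlap in any of the 5 bands either. There XiteC-del was the higher up to 120 kb and the lower beyond. The 2 kinds of pairs thus differed in the size of the ratio, not in overlap.

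Counts between the domains were higher in XiteC-del than in XiteE-del along nearly the whole of both domains. Bins of 30 kb were numbered upward along the map, with the lower domain as bins 50 to 60 and the upper domain as bins 61 to 79, and primers 576 and 573 were again left out. Of the 11 bins of the lower domain, 10 had more counts with the upper domain in both XiteC-del libraries than in either XiteE-del library, and 1 overlapped. Of the 19 bins of the upper domain, 18 had more counts with the lower domain, and 1 overlapped. Both sets of bins sum the same counts between the domains, so they are not separate results. How often bins elsewhere on the map lack overlap was not counted, so these counts of bins have no rate to be set against. Lack of overlap was not particular to pairs across the border. Pairs inside a domain also lacked it in every distance band above. Shares within the region far below also lacked overlap (16.4% and 16.1% in XiteC-del, 15.6% and 15.6% in XiteE-del), while those within the region far above overlapped. The median ratio was 1.40 over the lower bins and 1.34 over the upper bins.

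The largest ratio was at bin 54, X:100451149-100481148, which had 2375 and 2211 CPM with the upper domain in XiteC-del, 1198 and 1076 CPM in XiteE-del and 1440 and 1855 CPM in WT, 2.02-fold. Bin 58, X:100571149-100601148, had 3671 and 3497 CPM in XiteC-del, 2040 and 1938 CPM in XiteE-del and 2083 and 2225 CPM in WT, 1.80-fold. Bin 57, X:100541149-100571148, had 1153 and 1161 CPM in XiteC-del, 680 and 612 CPM in XiteE-del and 775 and 837 CPM in WT, 1.79-fold. In all of these bins, picked for their large ratios, both XiteC-del libraries were above both WT libraries and both XiteE-del libraries below them. The exceptions were bin 60, X:100631149-100661148, which adjoins the border, and bin 74 in the upper domain. Bin 60 had 5525 and 5402 CPM with the upper domain in XiteC-del, 5912 and 5436 CPM in XiteE-del and 5173 and 5857 CPM in WT, a ratio of 0.96. The ratio in bin 74 was 0.99.

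**Figure D3:**
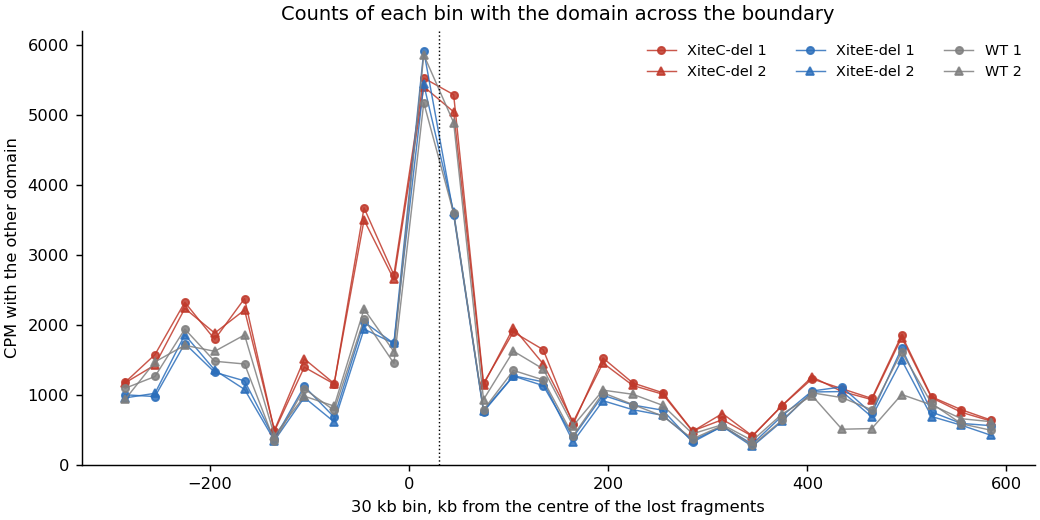
Counts of each 30 kb bin of the lower domain (left of the dotted line) with the upper domain, and of each bin of the upper domain with the lower domain, in CPM per library, for XiteC-del, XiteE-del and WT. XiteC-del is above XiteE-del in 10 of 11 lower and 18 of 19 upper bins, and the bin that adjoins the border from below, at 5525 and 5402 against 5912 and 5436 CPM, overlaps. The rate over the rest of the map was not counted.

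Fragments just below and just above the lost span were then taken as viewpoints. The 13 primers within 30 kb below it (X:100592174-100623270) had 18.2% and 18.0% of their X-X counts with the upper domain in XiteC-del, 12.2% and 11.9% in XiteE-del and 10.8% and 11.3% in WT. The difference between the deletions was 6.04 percentage points. Both XiteE-del libraries were also above both WT libraries, by less than XiteC-del was. The same primers had 7.16% and 7.95% of counts with the region far below in XiteC-del, 13.5% and 14.2% in XiteE-del and 9.28% and 7.54% in WT. In this direction XiteE-del stood above WT, and XiteC-del was close to WT 2 and below WT 1. Their share with the lower domain was 64.0% and 62.2% in XiteC-del and 61.5% and 62.4% in XiteE-del, with overlap.

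The 14 primers within 30 kb above the span (X:100639614-100670195), which reach across the WT border, had 31.8% and 31.3% of counts with the upper domain in XiteC-del, 32.3% and 30.7% in XiteE-del and 30.9% and 34.3% in WT, and the deletions overlapped. Their share with the lower domain was 42.5% and 40.5% in XiteC-del, 32.3% and 35.2% in XiteE-del and 37.8% and 46.5% in WT. Their share with far below was 9.46% and 10.1% in XiteC-del, 14.9% and 14.6% in XiteE-del and 12.05% and 9.52% in WT. On both sides of the span, the share with the region far below was higher in XiteE-del than in XiteC-del. The exact two-sided permutation test gave p = 0.33 for each share without overlap.

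Single bin pairs were tested across the whole map. In edgeR's quasi-likelihood test on 8 B100 libraries, 28 of 10521 pairs of 30 kb bins were called at an adjusted p below 0.05, 0.266% of those tested, with 14 higher (0.133%) and 14 lower (0.133%) in XiteC-del. All 28 involve at least one bin of the lower domain. Of the 14 higher pairs, 13 join the lower and upper domains, 6.22% of the 209 such pairs tested, and the other is bin 59 with itself. The median log2 fold change over these 209 pairs was 0.55, and 89.5% of them were above 0, against a median of -0.04 and 46.2% above 0 over all pairs tested. Of the 14 lower pairs, all have bin 59 (6 pairs) or bin 60 (8 pairs), the bins that hold the deletions, on one side. Their other bin lay in the lower domain in 5 pairs and far below in 9.

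The higher pairs centre on bins 58 and 54. Bin 58 was in 6 of the 14 and bin 54 in 5, while bin 61, X:100661149-100691148, the first bin beyond the border, was in 4. Bins 58 and 61 had 782 and 781 CPM in XiteC-del, 282 and 263 CPM in XiteE-del and 317 and 400 CPM in WT, and the log2 ratio was 1.52 ± 0.13 (SE), adjusted p = 5.58e-05. Both XiteC-del libraries were about alike and above all WT and XiteE-del libraries. Bins 54 and 61 had 455 and 399 CPM in XiteC-del, 183 and 195 CPM in XiteE-del and 279 and 362 CPM in WT, and the log2 ratio was 1.18 ± 0.14, adjusted p = 0.00229. Bin 59, X:100601149-100631148, with bin 61 had 682 and 647 CPM in XiteC-del, 354 and 316 CPM in XiteE-del and 245 and 352 CPM in WT, and the log2 ratio was 0.99 ± 0.12, adjusted p = 0.00229.

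Bins 58 and 66 (X:100811149-100841148), 240 kb apart, had 231 and 212 CPM in XiteC-del, 107 and 98.4 CPM in XiteE-del and 117 and 123 CPM in WT, and the log2 ratio was 1.11 ± 0.17, adjusted p = 0.0114. Bins 57 and 61 had 227 and 202 CPM in XiteC-del, 99.4 and 97.8 CPM in XiteE-del and 105 and 164 CPM in WT, and the log2 ratio was 1.12 ± 0.18, adjusted p = 0.0134. Contacts of bin 59 with itself, 4144 and 3771 CPM in XiteC-del, 2920 and 2933 CPM in XiteE-del and 3960 and 4982 CPM in WT, had a log2 ratio of 0.44 ± 0.06, adjusted p = 0.00375. Here XiteC-del was close to WT 1, XiteE-del was below both WT libraries, and the partly lost primer 573 belongs to this bin. In 12 of the 14 higher pairs both XiteC-del libraries were above both WT libraries, and in 12 both XiteE-del libraries were below both. These pairs were called for a difference between the deletions, so such positions around WT partly follow from the selection.

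The lower pairs reached from the edited bins downward, over distances of 180 to 990 kb. Bins 53 (X:100421149-100451148) and 59 had 264 and 255 CPM in XiteC-del, 489 and 513 CPM in XiteE-del and 273 and 412 CPM in WT, and the log2 ratio was -0.95 ± 0.12, adjusted p = 0.00229. Bins 52 (X:100391149-100421148) and 59 had 224 and 246 CPM in XiteC-del, 447 and 430 CPM in XiteE-del and 223 and 290 CPM in WT, and the log2 ratio was -0.90 ± 0.13, adjusted p = 0.00527. In both pairs XiteE-del stood above both WT libraries.

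Bin 45, X:100181149-100211148, lies below the lower end of the lower domain. With bin 59 it had 89.8 and 113 CPM in XiteC-del, 270 and 259 CPM in XiteE-del and 117 and 156 CPM in WT, a log2 ratio of -1.39 ± 0.18, and with bin 60 it had 149 and 139 CPM in XiteC-del, 346 and 319 CPM in XiteE-del and 198 and 250 CPM in WT, a log2 ratio of -1.21 ± 0.16 (adjusted p = 0.00274 for both). Bin 60 had 78.2 and 62.6 CPM with bin 44 (X:100151149-100181148) in XiteC-del, 194 and 210 CPM in XiteE-del and 104 and 194 CPM in WT, and the log2 ratio was -1.52 ± 0.22, adjusted p = 0.00553. With bin 48 (X:100271149-100301148), at 16.0 and 11.1 CPM in XiteC-del, 63.9 and 74.2 CPM in XiteE-del and 33.0 and 62.8 CPM in WT, it had a log2 ratio of -2.35 ± 0.37, adjusted p = 0.0114. In 12 of the 14 lower pairs both XiteE-del libraries were above both WT libraries, and in 10 both XiteC-del libraries were below both. As for the higher pairs, this partly follows from the selection.

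Bins 59 and 60 also hold the partly lost primers 573 and 576. With primers 576 and 573 left out as well, an alternative chosen after seeing the data, 14 of the 14 higher pairs and 8 of the 14 lower pairs were still called, and all 28 had the same sign. Bins 48 and 60 were among those no longer called, at a log2 ratio of -1.89 and an adjusted p of 0.0899. With offsets matched by distance, 30 pairs were called, 25 of the 28 among them. Leaving out single libraries lowered the counts of called pairs: 1 pair was called without XiteC-del 1, 5 without XiteC-del 2, 11 without XiteE-del 1 and 26 without XiteE-del 2. Of the 28 pairs, 1, 5, 10 and 14 were among them in that order, and in each case all 28 pairs had the same sign and an unadjusted p below 0.05. In a fit of all 10 libraries, with the 2 B101 libraries included, 0 pairs were called by edgeR and 296 had an unadjusted p below 0.05, among them all 28. The 28 pairs were picked from these same libraries. Their sign and unadjusted p in the refits are therefore largely fixed by that choice and are no separate support.

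**Figure D4:**
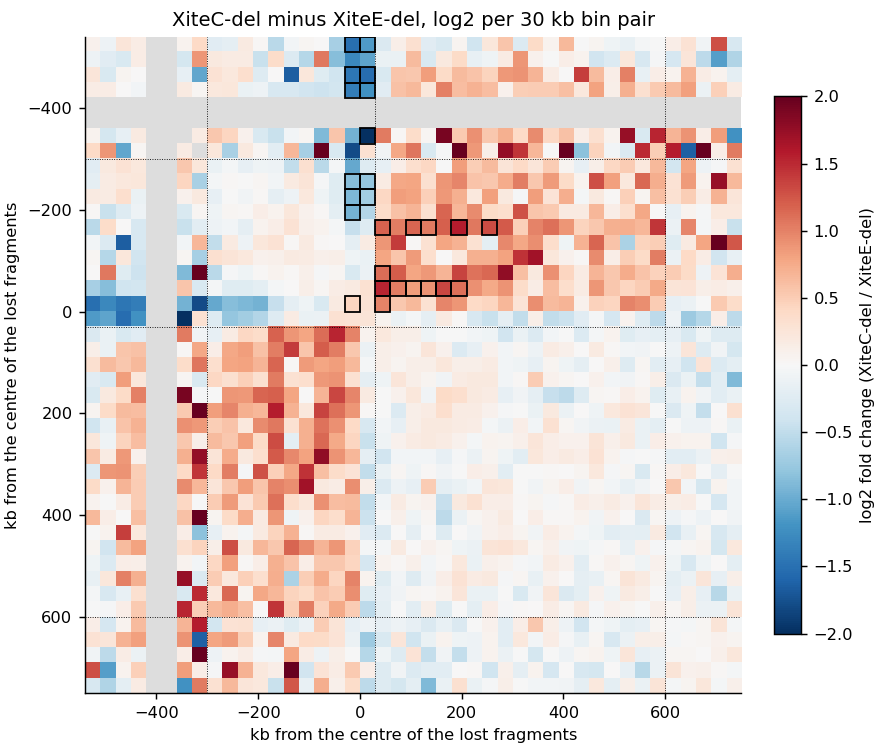
Log2 fold change (XiteC-del over XiteE-del) of each 30 kb bin pair around the edits, both axes in kb from the centre of the lost fragments, with colours saturated at 2 and -2, called pairs outlined in black, WT borders dotted and untested pairs in grey. The block between the lower and upper domains holds 13 of the 14 higher pairs, with outlines drawn above the diagonal only. Of the 14 lower pairs, 12 lie in the plotted range, in a stripe from the edited bins to bins below them.

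**Figure D5:**
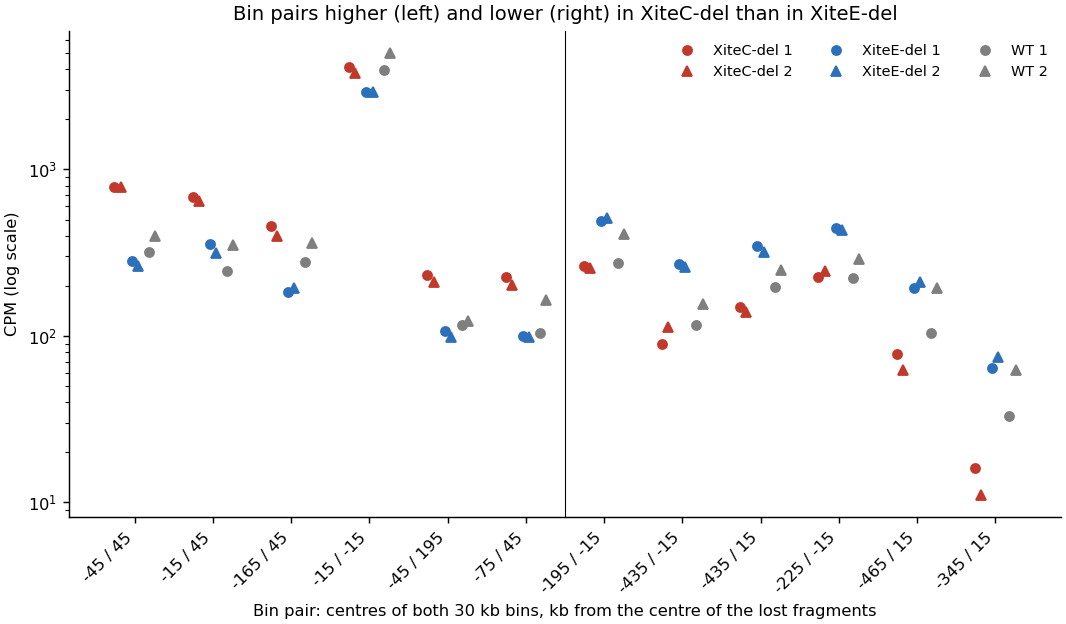
CPM per library, on a log scale, of the 6 higher (left) and 6 lower (right) bin pairs with the smallest adjusted p, each named by the centres of its bins in kb from the centre of the lost fragments. In bins 58 and 61 (leftmost) XiteC-del reads 782 and 781 CPM against 282 and 263 in XiteE-del and 317 and 400 in WT.

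Counts of the edited bins were also summed over longer stretches, with primers 576 and 573 left out. These sums hold counts of the called lower pairs above, so they are not a separate result. Bin 59 had 1194 and 1194 CPM with lower-domain bins more than 150 kb below it in XiteC-del, 2069 and 2077 CPM in XiteE-del and 1185 and 1641 CPM in WT. With the first 300 kb below the lower domain it had 242 and 295 CPM in XiteC-del, 695 and 715 CPM in XiteE-del and 269 and 333 CPM in WT. For bin 59, XiteC-del was therefore near WT and XiteE-del above it. Bin 60 had 1860 and 1729 CPM with the lower-domain bins in XiteC-del, 2201 and 2281 CPM in XiteE-del and 2181 and 2691 CPM in WT. With the first 300 kb below the lower domain, bin 60 had 403 and 361 CPM in XiteC-del, 837 and 759 CPM in XiteE-del and 460 and 597 CPM in WT. For bin 60, XiteC-del was below both WT libraries in both stretches, and XiteE-del was above both only in the second.

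Each deletion kept the fragments that the other had lost, and these were set beside WT. The fragments of primers 574 and 575, kept in XiteC-del, had 502 and 480.7 CPM with the upper domain in XiteC-del, against 365 and 436 CPM in WT. With lower-domain fragments at least 30 kb away they had 720 and 657 CPM in XiteC-del, against 1073 and 1395 CPM in WT, and with fragments less than 30 kb away 1650 and 1582 CPM in XiteC-del, against 1040 and 1281 CPM in WT. With far below they had 193 and 178 CPM in XiteC-del, against 291 and 344 CPM in WT, and with far above 249 and 259 CPM in XiteC-del, against 197 and 197 CPM in WT. In these 2 libraries of each, XiteC-del was above WT with the upper domain, with near fragments and with far above, and below WT with the more distant lower domain and with far below. The near counts include the pairs of primer 575 with primers 578 and 580 across the gap, given above. They also include its pair with primer 576, at 0.472 and 0.505 CPM in XiteC-del, against 211 and 249 CPM in WT. How far these pairs set the near difference was not tested.

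The fragment of primer 577, kept in XiteE-del, had 318 and 218 CPM with far below in XiteE-del, against 187 and 180 CPM in WT. With fragments less than 30 kb away it had 751 and 809 CPM in XiteE-del, against 924 and 1133 CPM in WT. With fragments at least 30 kb away, it had 558 and 688 CPM with the lower domain in XiteE-del, against 683 and 828 CPM in WT, and 193 and 205 CPM with the upper domain in XiteE-del, against 213 and 265 CPM in WT. XiteE-del was above WT with far below, and below WT with near fragments and with the more distant upper domain. It overlapped WT with the more distant lower domain. The near fragments include that of reverse primer 574, which XiteE-del had lost and WT kept. Part of the near difference may therefore be set by this missing partner, and the size of that part was not tested. These comparisons with WT were not tested.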

How the data were processed

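The submitters' processing notes name Bowtie2 and mm9, and other steps are not given in the sources used here. Per primer pair, the deposited 5C files hold raw counts, and the deposited primer lists give fragment positions (a unit other than a measurement). RNA and Xist purification tables were not used.

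Counts were summed over X primers, and over pairs of 30 kb bins (X-X or within chromosome 5) with a mean of at least 10 counts, in Python 3.11.15. Tests of both used edgeR 4.0.16 (R 4.3.3; quasi-likelihood, library total as offset, a mean per genotype, Benjamini-Hochberg, 0.05) on the 8 B100 libraries. For bin pairs the residual degrees of freedom were 3 and the biological coefficient of variation was 43.4%. DESeq2 1.42.0 was an alternative. On simulated data for these 10521 pairs, 3% of pairs changed 1.5-fold and 18% of those changed 2-fold were called, beside 3 false calls. Shares and border readings were compared by exact two-sided permutation of libraries.

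The members, bins, tests and the choice of B100 libraries were made with earlier results of these data known. Named bin pairs are the 6 higher and 6 lower with the smallest adjusted p. Named primers are the lost ones and up to 4 other called ones in each direction. The class of partly lost primers (not lost, but below 60% of the other deletion in both libraries) and the single bins and primer pairs described were chosen after their values were seen. Lost primers were left out of shares, border readings and bin pairs. Same-numbered libraries were not treated as pairs.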

Additional observations from a re-analysis of the deposited data

How the results depend on the processing

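The contrast at the border next to the edits (0.52 on the log2 scale), the share between the lower and upper domains and the viewpoint below the edits had the same direction under all alternatives tried. Leaving out 1 library could not have reversed these directions, because the values of the 2 deletions did not overlap. Leaving out 1 library gave 0.49 to 0.54 for the border (0.30 with 20 by 20 bins, 0.46 with 5 by 5), 0.36 to 0.42 for lower-upper pairs (log2), -0.35 to -0.30 for lower with far below, and 5.87 to 6.20 percentage points for the viewpoint. It gave -0.28 to -0.06 for far below with far above and -0.22 to -0.10 for upper with far above. Called bin pairs (28) numbered 0 with all 10 libraries, 135 with DESeq2 and 1 to 26 without 1 library; 20 kb and 50 kb bins gave 22 and 33. Called primers (8) numbered 4 with all 10 libraries, 5 with TMM, 30 with DESeq2, 5 with pairs over 30 kb only and 5 to 7 without 1 library. Differences near 0 changed sign: within chromosome 5, -0.000282 and -0.0576 without XiteC-del 1 or XiteE-del 1 (range over left-out libraries -0.0576 to 0.0735) and -0.0162 with primer pairs capped at the 99th percentile; within the lower domain, -0.092 with pairs over 30 kb only and -0.0797 capped; the viewpoint above the edits, -0.265 and -0.805 points (range over left-out libraries -0.805 to 0.856) and, chosen after seeing the data, -0.302 with primers 576 and 573 left out. Primer 578 gave -0.0846 with pairs over 30 kb only. The causes were not tested. At a loss threshold of 25%, XiteE-del lost 3 fragments, not 2. The numbers do not pair the libraries (correlation of deviations -0.036); with a replicate block 32 bin pairs were called, including the 28, and 11 primers. Precision is limited by 2 libraries a genotype, with which no exact test of a share can pass 0.05.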
